A study of Mus musculus with 32 samples.

Results

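The genes described here code for the parts of the contractile filament in muscle and for their counterparts in other cells. They are the troponins (Tnnc, Tnni, Tnnt), the myosin heavy and light chains (Myh, Myl), the alpha-actinins (Actn) and the tropomyosins (Tpm). A gene was taken when its symbol on the array annotation was one of these 7 stems followed by a number, with a trailing letter allowed, and the probe set that was brightest on average stood for it. This gave 40 genes of 18193 that have a probe set with exactly 1 symbol. Of the 40, 35 passed a filter on low values and were among the 13345 genes tested, and Tnni3k, Myh7b, Myh4, Myl6b and Myl10 did not pass. Tnni3k meets the naming rule but codes for a kinase that binds heart troponin I, not for a filament protein. The probe sets were selected on their mean signal over the 32 arrays, and the genes were chosen by name as a group after high muscle signals had been seen on these arrays.

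In striated muscle, myosin heads of the thick filament pull on actin of the thin filament, and calcium starts this by binding the troponin complex, which moves tropomyosin along the actin. Heart, slow skeletal, fast skeletal and developing muscle each use their own forms of troponin and myosin, so these genes mark the kind of muscle an RNA sample holds. Lung tissue holds smooth muscle in airways and vessels, with its own myosin, and in mice the walls of the large pulmonary veins contain heart muscle cells. Non-muscle myosins, actinins and tropomyosins serve the cytoskeleton of nearly all cells.

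Lung RNA of 32 mice was hybridised to Affymetrix Mouse 430_2 arrays, 1 array per mouse, each from a portion of that animal's lung. The mice were C3H/HeN, wild type for glutathione reductase (Gsr-WT, here WT) or knockout (Gsr-KO, here KO). Embryos of either genotype were taken at embryonic day 19 (E19) with no exposure, 4 arrays per genotype. Newborns were kept with their dams in room air or in 100% oxygen (hyperoxia) without a break from postnatal day (P) 0 to 5. Lungs were taken at P5 or at P56, which gave 8 groups of 3 arrays. The labels do not give the sex of the animals. Levels are MAS5 signals on a linear scale in arbitrary units. They are compared between arrays within a gene and never between genes, since probe sets differ in brightness. Changes are on the scale log2(signal + 26.3), and a change was called at an adjusted p under 0.05 (limma, Benjamini-Hochberg over 13345 genes). RNA came from whole pieces of tissue, so more cells of a type and more RNA per cell cannot be told apart.

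Gsr itself read 138 to 257 on the KO arrays and 498 to 1541 on the WT arrays, with no overlap. The summed signal per array was 31172700 to 35272200. On 2 arrays the control transcripts were much brighter at the 3' than at the 5' end, by 4.37 on the log2 scale on KO E19 replicate 1 and by 2.84 on WT P56 hyperoxia replicate 2, against at most 1.55 elsewhere. All 6 lung epithelial markers lay above the median of all values on each array, with Sftpb between 1108 and 15532 and Rtkn2 between 323 and 4134, and 3 of the 6 were called higher in KO than in WT at E19. Liver transcripts varied widely before birth and at P5. Ttr, a carrier protein made in the liver, read 25900.1, 17521 and 28298 on WT E19 replicates 2 to 4 but 228 on replicate 1 and 63.9 to 989 on the KO E19 arrays. At P5 it read 9583, 5630.3 and 2382 in WT air, 996, 309 and 327 in WT hyperoxia, 328, 65.5 and 57.2 in KO air and 22.8, 9.7 and 7.86 in KO hyperoxia. All 7 tested liver markers were called lower in KO than in WT at E19, where 15.2% of all genes tested were called in either direction. At P5 all 7 were lower without overlap in KO than in WT air (median change -4.77) and in WT hyperoxia than in WT air (-3.33). The shares of all genes called higher or lower at E19, and lower without overlap at P5, are given with the members below. The part of these features in the results below was not tested.

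Promoters of 4 genes described here are shown, 2 from the heart sets and 2 from the fast and developmental sets, so that they can be set side by side. Each is the 250 bases before the RefSeq start of the gene on GRCm38.p6, 5′ to 3′, and capitals mark matches to 1 of 4 motifs searched on both strands (TATAAA, the E-box CANNTG, the MEF2 site and the CArG box). Tnnc2 lies at chr2:164779735-164779984 (minus strand), Myh8 at chr11:67276874-67277123 (plus strand), Myl7 at chr11:5898783-5899032 (minus strand) and Myl3 at chr9:110763428-110763677 (plus strand).
Tnnc2, fast troponin C: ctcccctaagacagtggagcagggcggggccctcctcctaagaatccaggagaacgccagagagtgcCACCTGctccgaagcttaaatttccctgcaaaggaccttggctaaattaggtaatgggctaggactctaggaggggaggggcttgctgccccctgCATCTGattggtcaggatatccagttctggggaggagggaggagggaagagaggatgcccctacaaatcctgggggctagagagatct
Myh8, perinatal myosin heavy chain: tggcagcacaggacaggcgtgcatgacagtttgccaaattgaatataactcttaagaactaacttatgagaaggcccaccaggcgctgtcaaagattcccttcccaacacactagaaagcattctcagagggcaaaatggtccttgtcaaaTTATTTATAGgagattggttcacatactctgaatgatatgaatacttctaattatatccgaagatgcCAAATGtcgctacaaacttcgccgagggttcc
Myl7, atrial light chain: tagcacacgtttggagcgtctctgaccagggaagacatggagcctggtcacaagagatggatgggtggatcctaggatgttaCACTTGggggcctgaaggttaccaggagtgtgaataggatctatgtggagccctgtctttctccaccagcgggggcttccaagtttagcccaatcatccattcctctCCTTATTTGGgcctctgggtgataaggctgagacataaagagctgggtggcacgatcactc
Myl3, ventricular and slow light chain: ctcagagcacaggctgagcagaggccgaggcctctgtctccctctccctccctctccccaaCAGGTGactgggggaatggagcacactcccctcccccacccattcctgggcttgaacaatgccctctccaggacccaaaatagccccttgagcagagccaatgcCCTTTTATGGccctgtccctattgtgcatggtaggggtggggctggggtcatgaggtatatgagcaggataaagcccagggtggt
The Tnnc2 window holds 2 E-boxes. In Myh8 a single stretch matches the MEF2 site and, on the other strand, TATAAA, and an E-box lies nearer to the start. The windows of Myl7 and Myl3 each hold a CArG box, 51 and 75 bases from the start, and 1 E-box. Of 36 members with a promoter in the RefSeq table, CArG boxes were found in Myl7, Myl3, Myh4 and the smooth muscle light chain Myl9, and MEF2 sites in Myh1, Myh4 and Myh8. No other heart or heart-and-slow promoter held a CArG box, so the 2 shown are not typical of their sets in this. Over all 32817 promoters 1.47% held a CArG box, 2.92% a MEF2 site, 12.4% TATAAA and 66.2% an E-box. TATAAA was found in 3 of 5 fast promoters (Myh1, Myh4, Myl1), in both developmental ones (Myh3, Myh8), and in 0 of 6 heart promoters. A match describes the letters only.

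The 40 genes fell into sets by the arrays on which they were high. A gene was counted as high on an array when its signal there, with the offset added, was at least 4 times its median over the 32 arrays. By this measure 19 of the 24 genes with heart, skeletal or general striated forms were high on some array, and none of the 16 tropomyosin, smooth muscle, non-muscle and unassigned genes was. Over all 13345 genes tested 6.02% were high on some array. The ratio of the highest to the lowest array, each with the offset added, was 12.2 to 39.5 for the heart forms, 7.71 to 537 for forms shared by heart and slow muscle, and 4.59 to 149 for fast forms. It was 1.57 to 7.17 for non-muscle forms, 2.16 to 2.81 for Tpm1, Tpm2 and Tpm3, and 6.58 to 16.0 for the smooth muscle forms. The median of this ratio over all genes tested was 3.20. The lowest ratios of the heart, heart-and-slow and fast forms were those of Tnni3k, Myh7b and Myh4, which did not pass the filter. The high arrays differed by set. Tnnt2, Tnni3, Myh6, Tnnc1, Myh7, Myl2 and Myl3 were high at E19 on KO replicates 3 and 4. Of these, Tnnt2 and Myh7 were also high on WT replicate 1, and Myl2 on KO P5 air replicates 1 and 2. Myl4 was high on KO E19 replicate 4 alone. Myl7 was high on no array, though its highest array was also KO E19 replicate 4. Fast forms were high on all 3 KO P5 hyperoxia arrays, on WT P5 air replicate 1 and on WT P5 hyperoxia replicates 2 and 3, and at E19 Tnnc2 and Myl1 were high on WT replicate 1 and Myl1 on KO replicate 4.

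**Figure D1:**
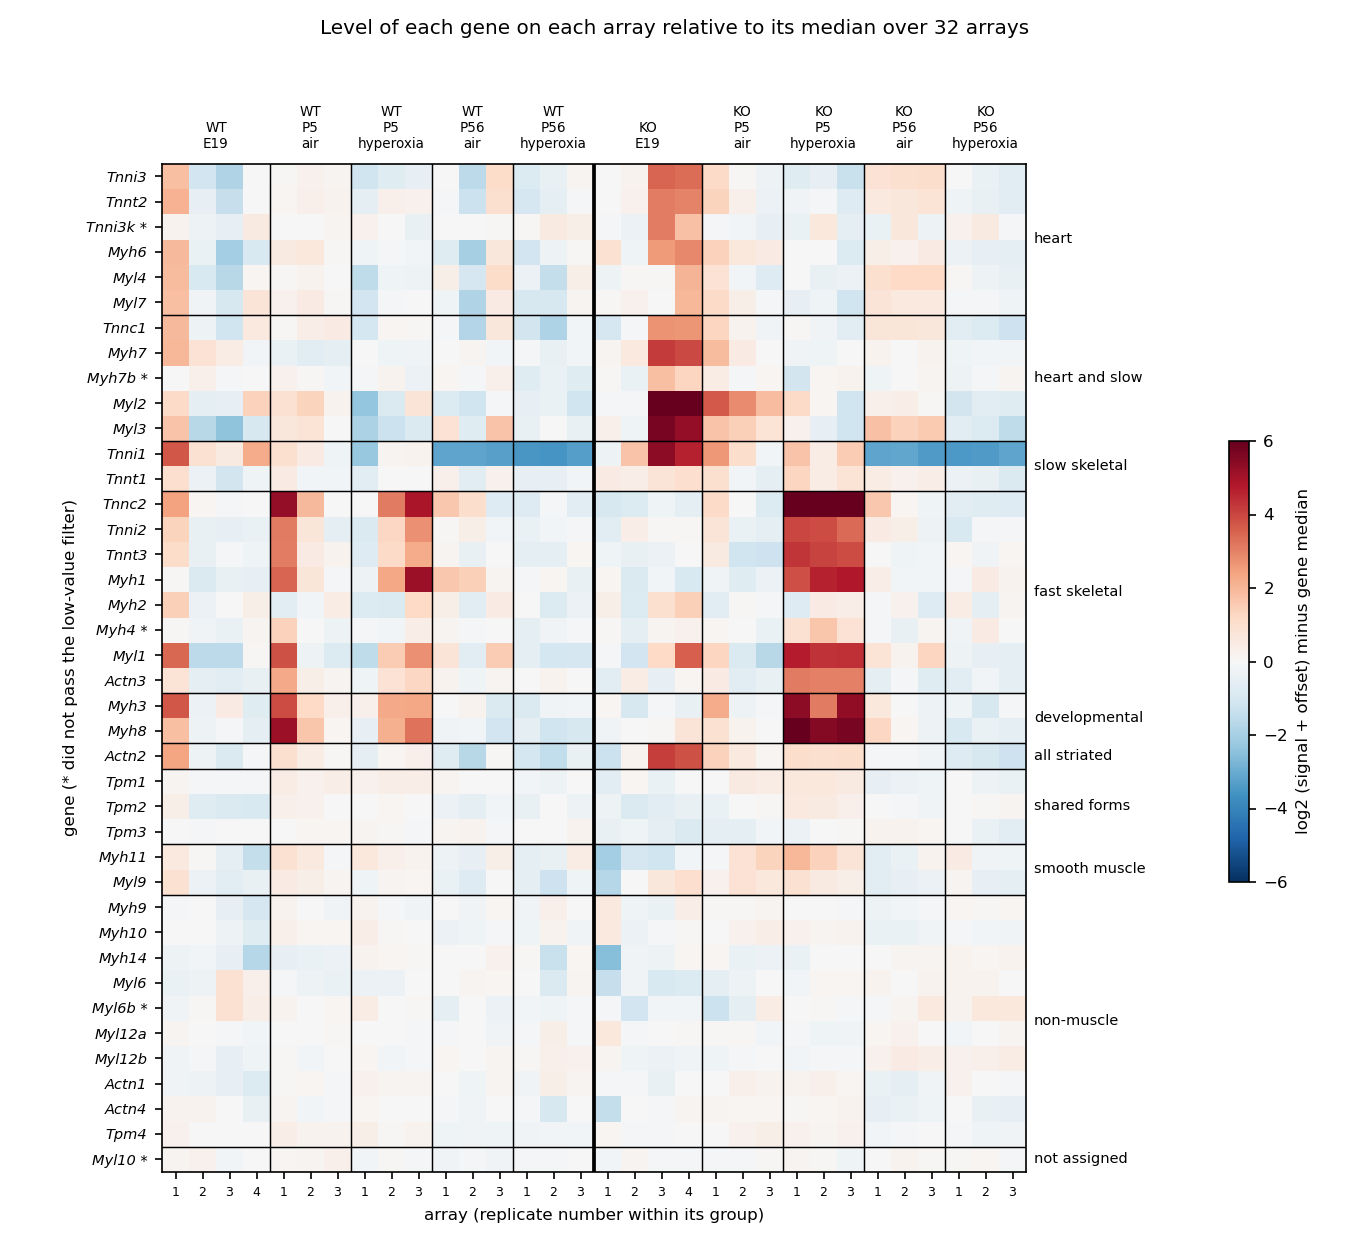
Colour gives log2(signal + offset) of each of the 40 genes (rows, by class of muscle) on each of the 32 arrays (columns, by group and replicate) minus that gene's median, with the scale ending at 6 in either direction. Most heart and heart-and-slow forms are red on KO E19 replicates 3 and 4, though Myl4 and Myl7 are not on replicate 3. Most fast and developmental forms are red on all 3 KO P5 hyperoxia arrays and on some WT P5 arrays, and Tnni1 is blue at P56. The lower rows, non-muscle forms, stay near white.

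At E19 the heart forms separated individual embryos rather than genotypes. Tnnt2, heart troponin T, read 13060.5, 2168, 1154 and 3004 on the 4 WT arrays and 3089, 3615, 25692 and 23954 on the 4 KO arrays. Tnni3, heart troponin I, read 4426, 543, 335 and 1233 in WT and 1203, 1434, 14241 and 12785 in KO. KO replicates 3 and 4 were the highest for both genes, WT replicate 1 came next, and the genotypes overlapped. Myh6, the alpha heavy chain of the heart, followed the same order with 22838 and 28831 on KO replicates 3 and 4 and 14752 on WT replicate 1, against 918 to 7237 on the other 5 arrays.

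Among these arrays the atrial and the ventricular forms did not go together. Myl7, the atrial regulatory light chain, read 18983, 4773, 2805 and 9249 in WT and 5819, 6668, 5585 and 21651 in KO. Myl4, the atrial essential light chain, read 12827, 1833, 1064 and 3732 in WT and 2822, 3678, 3649 and 14332 in KO. For both atrial light chains WT replicate 1 and KO replicate 4 were the brightest embryos, and KO replicate 3 was not among them. Myl2, the ventricular regulatory light chain, read 411, 102, 113 and 486 in WT and 152, 154, 19473 and 20825 in KO. Myl3, the ventricular essential light chain that slow muscle also uses, read 1540.0 in WT replicate 1, 62.6 to 216 in the other WT embryos, 559.5 and 376 in KO replicates 1 and 2, and 24486 and 18686 in KO replicates 3 and 4. Myh7, the beta heavy chain, the main one of the heart before birth, read 5726 in WT replicate 1, 1242 to 2606 in the other WT arrays, 1592 and 2096 in KO replicates 1 and 2, and 25848 and 22084 in KO replicates 3 and 4. WT replicate 1 was thus among the brightest for the atrial light chains, with ventricular forms far below KO replicates 3 and 4. KO replicate 3 was bright for ventricular forms, with atrial light chains at about the level of KO replicates 1 and 2. KO replicate 4 was bright for both.

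**Figure D2:**
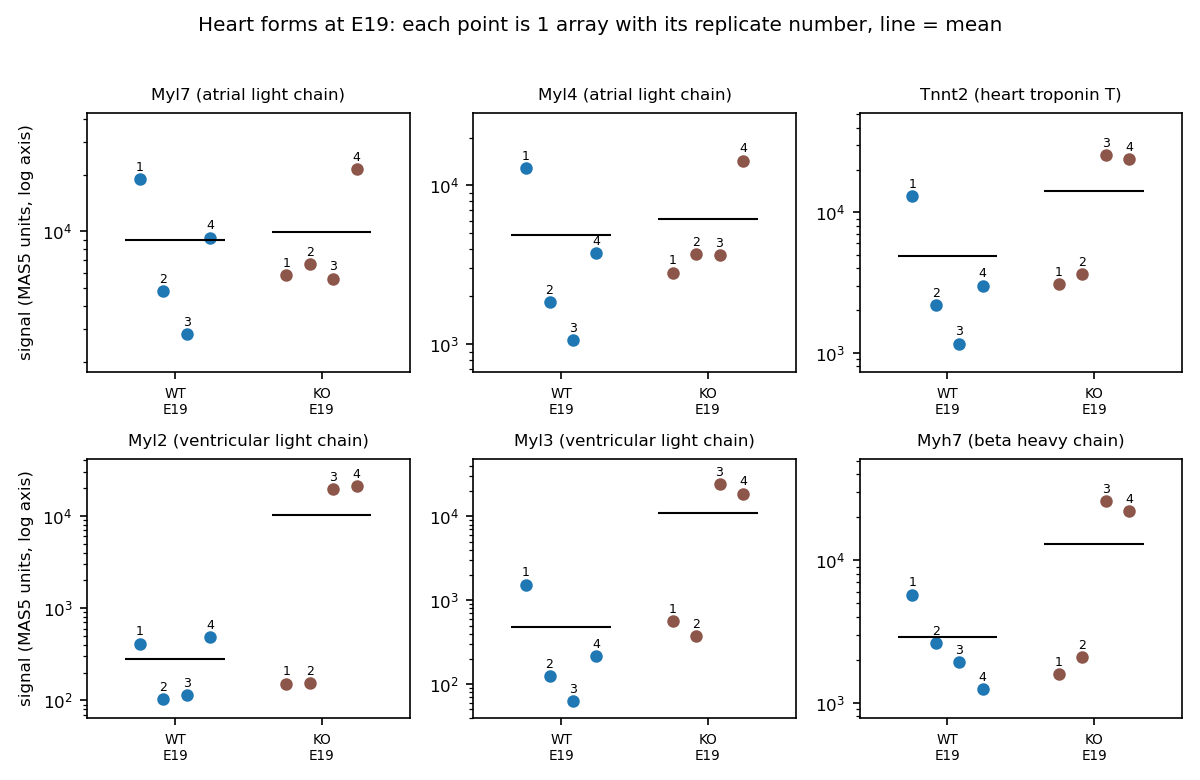
Signal (log axis) of 3 atrial or general heart genes (top) and 3 ventricular or beta-type genes (bottom) on the 4 WT and 4 KO arrays at E19, 1 point per array with its replicate number and a line at the arithmetic mean. KO replicate 3 is high for Myl2, Myl3 and Myh7 but not for Myl7 and Myl4, WT replicate 1 is high for Myl7 and Myl4, and KO replicate 4 is high in all 6 panels.

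Of 13 tested heart genes of other families, some of them also filament proteins, 6 had their highest array in KO replicate 3 and 7 in KO replicate 4. Nppa, the atrial natriuretic peptide, read 20334 in WT replicate 1 and 23157 in KO replicate 4, but 4203 in KO replicate 3 and 9.84 to 507 in the other 5 embryos. Pln, the regulator of the calcium pump that ventricle expresses strongly, read 14769.9 and 9066 in KO replicates 3 and 4 and 1022 in WT replicate 1, against 56.1 to 588 elsewhere. Nppb, the related B-type peptide, read 2747 in WT replicate 1 and 4030.1 and 5423 in KO replicates 3 and 4, against 31.7 to 258 elsewhere. Sln, an atrial regulator of the same pump, named after its values were seen, read 5001 in WT replicate 1 and 9081 in KO replicate 4 but 279.6 in KO replicate 3, below 6 of the other 7 embryos. Summed over 14 other heart genes, the signal ranged from 5692 to 72344 in WT and from 14769.5 to 122369 in KO, and no gene of the list was listed at 0. Second probe sets of Tnnt2 and Myl3 that passed the filter were also high on KO replicates 3 and 4. A further 2 probe sets carry the symbols of both Myh6 and Myh7 and were not used.

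When KO embryos were compared with WT embryos, 5 of the 35 members were called, where 15.2% of all genes tested were, 6.91% higher and 8.25% lower. Myl3 was higher in KO by 3.60 (SE 0.93; adjusted p = 0.00966, limma), Tnni3 by 2.04 (SE 0.69; adjusted p = 0.0449, limma) and Myh6 by 1.88 (SE 0.62; adjusted p = 0.0409, limma). The ranges of the genotypes overlapped for all 3 genes. The 9 tested heart and heart-and-slow forms had a median change of 1.52, against -0.05 over all genes tested. Of the 13 tested other heart genes 4 rose and 0 fell, with a median of 1.74. Without KO replicate 3 or 4, or without WT replicate 2, 3 or 4, Myl3 was the only heart form still called, and with the 2 E19 groups fitted alone no member was. Without WT replicate 1, or without the 2 arrays of steep 3' to 5' ratio, Tnnt2 and Myh7 were called as well, as they were without KO replicate 1 or 2.

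The other 2 called members were lower in KO embryos. Tpm3, a tropomyosin of slow muscle and of non-muscle cells, read 9898, 9514, 9833 and 10084 in WT and 7224, 8325, 6959.5 and 5390.4 in KO. Every KO embryo lay below every WT embryo, and the change was -0.51 (SE 0.13; adjusted p = 0.0080, limma). Tpm3 and Tnnc2 were the 2 members whose E19 groups did not overlap, both lower in KO, where 5.61% of all genes tested were, and 0 members were higher without overlap, where 4.47% were. Myl6, the non-muscle and smooth muscle essential light chain, read 544, 587, 1389 and 923 in WT and 266, 621, 372 and 407 in KO, a change of -0.96 (SE 0.24; adjusted p = 0.00788, limma). Brighter probe sets of Myl6 carry several symbols and were not used. KO replicate 1, the lowest for Myl6, is the array with the steepest 3' to 5' ratio, and without the 2 steep arrays both genes were still called. Tpm3 was not called when arrays were centred on their medians.

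At P5 in air no member was called between KO and WT, where 0.015% of all genes tested were called. Myl2 read 2498, 1352 and 687 in KO, against 337, 473 and 201 in WT, and Myl3 read 1531, 1276 and 812 against 731, 806 and 451. Myl2, Myl3 and Myh7 were the 3 of 35 members higher in KO without overlap, close to the share over all genes tested, 9.36%. Tpm3 and Myh1 were lower without overlap, where 8.42% were. At an unadjusted p under 0.05, 6 members differed (5.55% of all genes did), and 0 of the 9 heart and heart-and-slow forms were among them. They were Tpm3 and 5 fast or developmental forms, Tnnc2, Tnnt3, Myh1, Actn3 and Myh8, all lower in KO, and the 9 tested fast and developmental forms had a median change of -1.32. KO P5 air replicate 1, the highest P5 air array for Myl2, Myl3 and Myh7, also read 4208 for Nppa.

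At P5 heart forms lay lower in hyperoxia than in air in either genotype, without a call. In WT, Tnni3 read 1316, 1499.7 and 1405 in air and 525, 750.2 and 871 in hyperoxia, and Myl3 read 731, 806 and 451 in air and 103, 166 and 235 in hyperoxia. Tnni3, Myl4, Myl3, Myh6 and Myl7 lay lower in hyperoxia with no overlap, together with Myl9 and Myl12a, which is 7 of 35 members where 9.90% of all genes tested did so. In KO, Tnni3 read 2768, 1318 and 1002 in air and 744, 878 and 481 in hyperoxia. Tnni3, Myl3, Myl2, Myh7, Myh6 and Myl7 were lower without overlap, as was Myh9, again 7 of 35 where 8.12% of all genes did so, and none of these was called. No member was called in WT, where 0.00749% of all genes tested were called and 0 members had an unadjusted p under 0.05 (3.09% of all genes did). The change of Tnni3 was -0.98 (SE 0.79) in WT and -1.15 (SE 0.79) in KO, and the air groups of WT and KO are different mice. Myh7 went the other way in WT, reading 1070.3, 903 and 935 in air and 1419, 1184 and 1216 in hyperoxia. It was higher without overlap there with Myh14 and Actn1, where 7.28% of all genes were. Liver markers were lower in the same comparison in WT, as given above, and their part was not tested.

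At P56 the KO lungs of mice that had breathed oxygen as newborns read lower for the heart forms than those kept in air. Tnni3 read 2253, 2455 and 2618 in air and 1276, 925 and 781 after hyperoxia. Tnnt2 read 4553, 4959 and 5419 in air and 2582, 2214 and 1865 after hyperoxia. Every array of either gene after hyperoxia lay below every air array. Myl7 read 9533, 8354 and 8339.7 in air and 5111, 4991 and 4613 after hyperoxia, and Myl3 read 1599, 1209 and 1389.5 against 269.7, 245 and 137. All 9 tested heart and heart-and-slow forms (Tnni3, Tnnt2, Myh6, Myl4, Myl7, Tnnc1, Myh7, Myl2, Myl3) lay lower without overlap. With Tnnc2, Tnnt1, Myh8, Myl1, Actn2 and Tpm3 this made 15 of 35 members, where 6.14% of all genes tested lay lower without overlap.

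The changes of these heart forms ran from -2.59 for Myl3 (SE 1.08) and -1.61 for Tnnc1, the troponin C of heart and slow muscle (SE 0.77), to -0.34 for Myh7 (SE 0.69). Their median was -1.16, against 0.03 over all genes tested. None was called with all groups in 1 fit, in which 0 of all 13345 genes were called, and 6 members had an unadjusted p under 0.05, where 2.72% of all genes did. The spread in that fit includes the E19 embryos described above. With the 2 KO P56 groups fitted alone 9 members were called, all lower, where 0.33% of all genes were called: Myl3 (adjusted p = 0.00168), Tnnc1 (adjusted p = 0.00202), Myl4, Tnnt2, Tnni3, Myl7, Myh6, Myl2 and Actn2, each by limma. Mb, the oxygen-binding myoglobin of striated muscle, read 4123, 3805 and 3959.7 in KO air and 914, 1066 and 559 after hyperoxia.

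In WT at P56 the heart forms spread widely within groups. Tnni3 read 1249.6, 396 and 2664 in air and 699, 912 and 1395 after hyperoxia, and Myl7 read 4536, 1551 and 7818 in air and 2788, 2804 and 6071 after hyperoxia. WT air replicate 2 was the lowest and replicate 3 the highest in air for both. The 9 heart and heart-and-slow forms had a median change of -0.23 in WT. No member was called in WT or in the genotype-by-oxygen term at P56, where 0 of all genes tested were called by limma in either. At an unadjusted p under 0.05, 0 members passed in WT (5.07% of all genes did) and 1 in that term (2.47% did). The only members lower in WT after hyperoxia without overlap were Tpm1, Myh1 and Tnni1, where 6.90% of all genes were. The fat marker Adipoq, the hormone of fat cells, varied at P56 as well, with 744, 262 and 2002 in KO air and 1277, 1293 and 1664 after hyperoxia. The log2 ratio of 3' to 5' control signal was 1.05, 0.81 and 0.68 in KO air and 0.54, 1.24 and 1.55 after hyperoxia. The part of tissue makeup and of RNA quality in these differences was not tested.

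**Figure D3:**
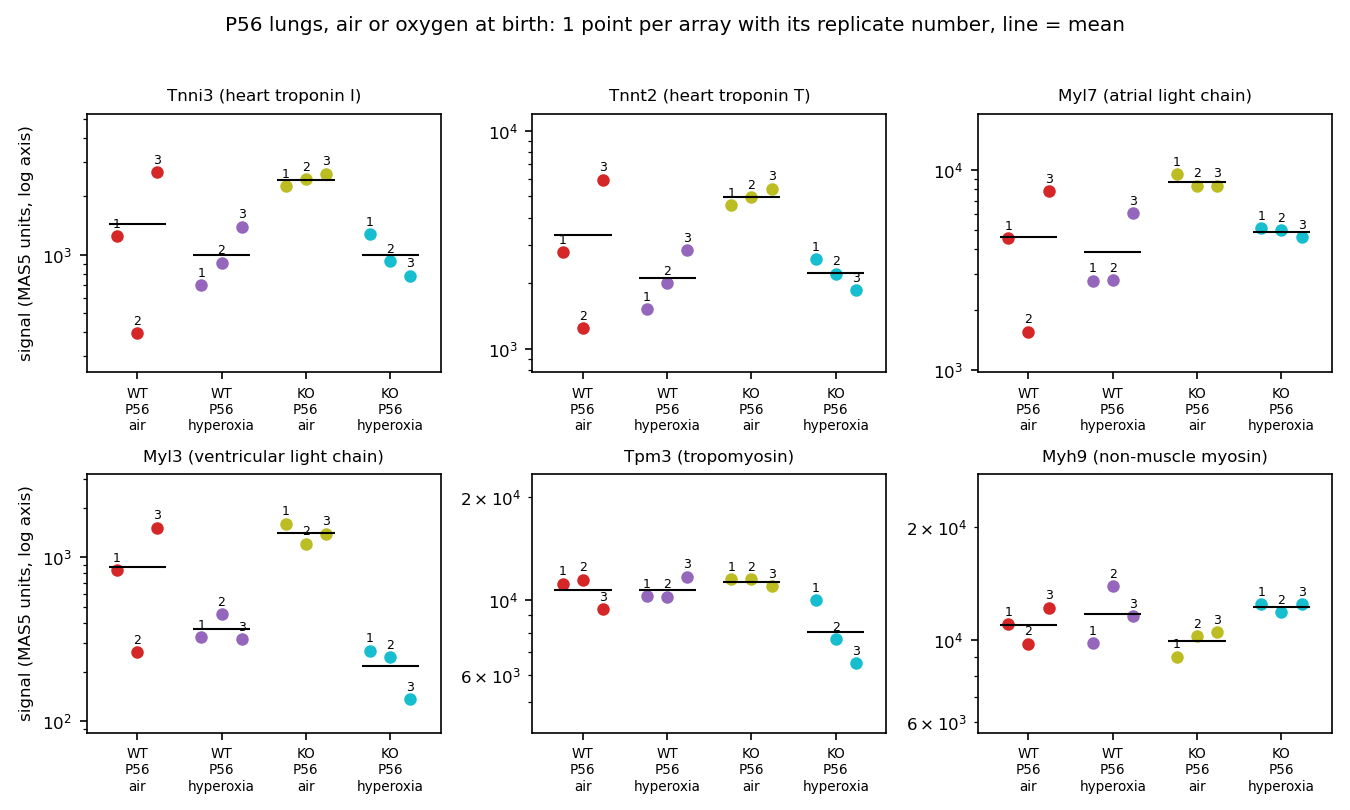
Signal (log axis) of 4 heart forms, of Tpm3 and of the non-muscle myosin Myh9 at P56, 1 point per array with its replicate number and a line at the arithmetic mean. In KO the 3 hyperoxia arrays lie below the 3 air arrays for Tnni3, Tnnt2, Myl7, Myl3 and Tpm3 and above them for Myh9, whereas the WT groups overlap in every panel.

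Among members that are not heart forms, 3 were higher in KO after hyperoxia at P56 without overlap, where 9.58% of all genes tested were. Myh9, the main non-muscle myosin heavy chain, read 9002, 10221 and 10467 in air and 12438, 11855 and 12446 after hyperoxia. Actn1, the non-muscle actinin that anchors stress fibres, read 3281, 3028 and 3827 against 5294, 4334 and 4188, and Myh10, a second non-muscle heavy chain, read 6208, 6289 and 7132 against 7893, 7460.4 and 7258. Neither comparison of KO with WT at P56 called a member, in air (0.0599% of all genes called, 4 members and 11.9% of all genes at an unadjusted p under 0.05) or after hyperoxia (0.03% of all genes called, 0.0225% higher, and 1 member and 8.7% of all genes at that p). After hyperoxia Myl3, Tpm3 and Actn3 were lower in KO without overlap, where 7.48% of all genes were, and Myl1 was higher, where 9.36% were. In air Myl2 and Myl7 were higher in KO without overlap, with Myl12a, Myl12b and Tpm4, where 17.9% of all genes were, and Actn4 and Tpm1 were lower, where 16.6% were.

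Slow skeletal muscle is marked by Tnni1, its troponin I, which the heart also uses before and shortly after birth, and by Tnnt1, its troponin T. Tnni1 read 4554, 620.4, 471 and 1607 in WT embryos and 256, 1105, 14449 and 8595 in KO embryos, with the same 3 embryos at the top as for Tnnt2. At P5 it read 643, 466 and 267 in WT air, 45.9, 362 and 379.5 in WT hyperoxia, 2043, 704 and 283 in KO air and 1109, 446 and 959.6 in KO hyperoxia. At P56 every one of the 12 arrays read between 3.23 and 13.5, below every earlier array and far below the median of all values, 100.4. The fall from P5 to P56 in air was called in WT (a change of -3.60, SE 0.97, adjusted p = 0.00709, limma) and in KO (-4.40, SE 0.97, adjusted p = 0.0010, limma). Since all P56 arrays lie under the median of all values, the change is -1.86 or more negative in WT, and -2.61 or more negative in KO, when that median stands in for them. Tnnt1 stayed between 250.0 and 1430.0 on all arrays and did not follow Tnni1: it read 693, 354 and 671 in WT air at P56 and 791, 497 and 499 at P5. The adjoining heart gene of Tnnt1, Tnni3, and the near neighbour of Tnni1, Tnnt2, were still bright at P56, as given above.

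Fast and developmental skeletal forms were high in the KO newborns kept in oxygen. Tnnc2, fast troponin C, read 4121, 3575 and 3661 there and 93.6, 26.9 and 4.86 in KO air. Tnnt3, fast troponin T, read 1491, 1225 and 1139 in hyperoxia and 85.4, 6.55 and 5.74 in air. Tnni2, fast troponin I, read 1996, 1850.1 and 1296 in hyperoxia and 191, 68.2 and 59.5 in air. All 3 hyperoxia arrays lay far above all 3 air arrays for each of these troponins. Myh8, the perinatal heavy chain, read 4136, 2999.8 and 3422 in hyperoxia and 99.8, 50.2 and 41.0 in air. Myh3, the embryonic heavy chain, read 2418, 488 and 2319 in hyperoxia and 249, 22.4 and 30.4 in air. Myh1, an adult fast heavy chain, read 733, 1226 and 1432 in hyperoxia and 17.6, 4.57 and 13.5 in air, and Actn3, the fast fibre actinin, read 415, 395 and 385 against 45.2, 6.58 and 10.7.

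In this comparison 7 of 35 members were called, all higher, where 0.337% of all genes tested were called and 0.33% were called higher. The changes were 6.03 for Tnnc2 (SE 0.99; adjusted p = 0.00196), 5.34 for Myh8 (SE 0.84; adjusted p = 0.00137), 4.88 for Myh1 (SE 0.81; adjusted p = 0.00215) and 4.73 for Tnnt3 (SE 0.61; adjusted p = 0.000235). They were 3.97 for Myh3 (SE 0.90; adjusted p = 0.0459), 3.82 for Tnni2 (SE 0.70; adjusted p = 0.00624) and 3.26 for Actn3 (SE 0.46; adjusted p = 0.000444), all by limma. The air arrays of Tnnc2, Myh8, Myh1, Tnnt3 and Actn3 all lay under the median of all values, and with that median in their place the changes are at least 4.91, 4.79, 3.14, 3.36 and 1.74. Myl1, the fast essential light chain, read 6679.8, 5194 and 5320.2 in hyperoxia and 600.1, 115 and 53.7 in air, not called, with a change of 4.90 (SE 1.23; adjusted p = 0.105, limma). It was 1 of 10 members higher without overlap, the 7 called and Tpm1 and Tpm2 being the others, where 7.19% of all genes were. Myh3 was not called with no filter, a stricter filter, an offset of 1, quantile normalization, arrays centred on their medians, every kept probe set, the compared groups alone, or without the 2 arrays of steep 3' to 5' ratio. It was also not called without KO air replicate 2 or 3, or KO hyperoxia replicate 1 or 3. Leaving out 1 of the 6 arrays left 5 to 7 of the members called.

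Fast forms were not all of 1 kind. Myh2, the heavy chain of fast oxidative fibres, read 6.37, 51.4 and 46.7 in KO hyperoxia at P5 and was at most 125 on any of the 32 arrays. Myh4, the heavy chain of the fastest fibres, read 47.9, 96.2 and 44.7 there, its 2 highest arrays being KO hyperoxia replicate 2 and WT air replicate 1 (75.3), and it did not pass the filter. Both genes lie in 1 row with Myh3, Myh1 and Myh8, with no other protein-coding gene between them in RefSeq. Of 13 tested other genes of skeletal muscle 8 were called higher in KO hyperoxia and 0 lower, where 0.337% of all genes tested were called. Their median change was 1.96, against -0.01 over all genes tested. The other 5 were not called, and Tcap, a Z-disc protein, lay lower without overlap. Of the 13, 8 had their highest array in KO P5 hyperoxia and 5 in KO E19 replicate 3 or 4, among them Ckm, the muscle creatine kinase, at 17052 in KO E19 replicate 3 against 2531, 2157 and 1661 in KO P5 hyperoxia. Mylpf, the fast regulatory light chain, read 4972, 3320.1 and 3723 in hyperoxia and 398, 62.5 and 56.6 in air, and Acta1, skeletal muscle actin, read 7884, 7299 and 6483 against 658, 185 and 247. Of 3 tested genes of slow fibres or of muscle formation 2 were called higher, with Mybpc1, the slow myosin-binding protein, at 843, 505 and 615 in hyperoxia and 48.3, 36.5 and 4.99 in air. The other listed genes of this kind did not pass the filter. Some tested genes of both lists passed it only through the KO hyperoxia arrays, so these counts depend in part on that group.

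Fast forms were high on some WT arrays too, in either gas. Tnnc2 read 2074, 181 and 29.0 in WT air at P5 and 28.3, 444 and 1577 in WT hyperoxia. Myh8 read 2293, 181 and 46.5 in WT air and 21.2, 267 and 611 in WT hyperoxia, and Myh1 read 552, 58.1 and 22.6 against 16.1, 232 and 1793. WT air replicate 1 and WT hyperoxia replicates 2 and 3 were thus the high arrays, and the WT groups overlapped for each of these genes. At E19 the fast forms stayed low apart from WT replicate 1, which read 261 for Tnnc2, 2796 for Myl1 and 764 for Myh3. KO E19 replicate 4 read 3089.6 for Myl1, which the embryonic heart also uses, and 10.1 for Tnnc2. At P56 Tnnc2 was at most 140.0, and Myh8 at most 131, on any of the 12 arrays.

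When KO and WT newborns in hyperoxia were compared, 3 members were called higher in KO, where 0.187% of all genes tested were called, 0.172% higher. These were Actn3 by 2.43 (SE 0.46; adjusted p = 0.0127, limma), Tnnt3 by 3.23 (SE 0.61; adjusted p = 0.0127, limma) and Myh8 by 4.08 (SE 0.84; adjusted p = 0.0259, limma). As given above, Actn3 passed the filter only through these KO arrays, and it was also called with no filter. No KO array overlapped a WT array for 14 members that were higher in KO, among them Tnnc2, Tnni2, Myh3 and Myl1, where 9.89% of all genes tested were so. Myl12a and Myh14 were lower without overlap, where 8.62% were. The count of 3 became 5 without WT hyperoxia replicate 3, and 0 without any 1 of the other 5 arrays or with an offset of 1. The genotype-by-oxygen term at P5 called the same 3 genes, at 3.57 for Actn3, 6.0 for Myh8 and 5.12 for Tnnt3 (adjusted p = 0.0141, 0.0256 and 0.00753, limma), where 0.135% of all genes tested were called. Tnnt3 alone was called without WT air replicate 1, WT hyperoxia replicate 1, KO air replicate 2 or KO air replicate 3, and no member was with the 4 groups fitted alone.

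**Figure D4:**
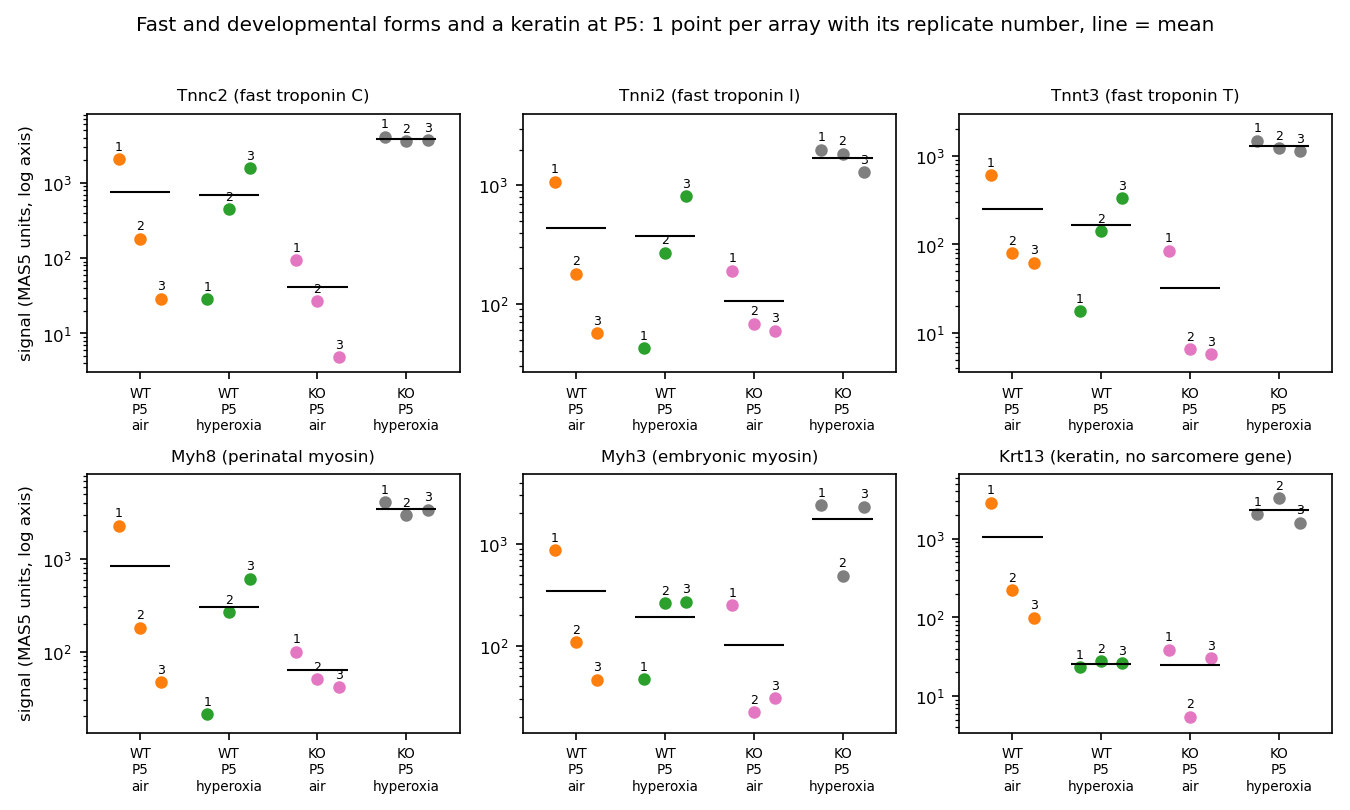
Signal (log axis) of 3 fast troponins, 2 developmental myosins and the keratin Krt13 at P5, 1 point per array with its replicate number and a line at the arithmetic mean. The 3 KO hyperoxia arrays are the highest for Tnnc2, Tnni2, Tnnt3 and Myh8, WT air replicate 1 is the next, and WT hyperoxia replicates 2 and 3 are raised for the muscle genes but not for Krt13.

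Genes of stratified epithelium, the lining of oesophagus and skin, were high on several of the same arrays. Krt13, a keratin of that lining, read 2071, 3311 and 1599.6 in KO hyperoxia at P5, 39.2, 5.49 and 30.6 in KO air, 2875, 223 and 99.3 in WT air and 23.3, 27.8 and 26.2 in WT hyperoxia. Krt4, its partner keratin, read 3172, 4366 and 2499 in KO hyperoxia, 4052 in WT air replicate 1 and 82.6, 53.2 and 83.4 in WT hyperoxia. Krt15, a keratin of basal cells, read 1802, 2025 and 1310.0 in KO hyperoxia, 704, 98.1 and 15.1 in KO air, and 1835 in WT air replicate 1, and was highest in WT E19 replicate 1 at 4579. WT hyperoxia replicates 2 and 3 were therefore high in fast muscle forms with Krt13 and Krt4 low. WT E19 replicate 3 was the reverse, with 1307 for Krt4 and 25.7 for Tnnc2, while WT E19 replicate 1 read 4403 for Krt4 and 261 for Tnnc2. Of 10 tested squamous and basal genes 5 were called higher in KO hyperoxia than in KO air, where 0.337% of all genes tested were called. Not all of the 10 would have passed the filter without the KO hyperoxia arrays. Their 11 genes on the array summed to 7473 to 12425 in KO hyperoxia, 897 to 1811 in KO air, 1234.5 to 10982 in WT air and 877 to 1165 in WT hyperoxia, with none listed at 0. Myog, a regulator of muscle formation, read 645, 158 and 376 in KO hyperoxia and 98.0, 21.0 and 12.8 in KO air. The part of tissue outside the lung in these results was not tested.

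Actn2, the actinin of the Z-disc in heart and skeletal muscle, was high on 3 embryo arrays and on no P5 array. It read 2969, 449, 293 and 524 in WT embryos and 215, 641, 10288 and 8331 in KO embryos, with KO replicates 3 and 4 and WT replicate 1 at the top as for Tnnt2. At P5 it read 1170.4, 1124 and 1203 in KO hyperoxia and 377, 603 and 694 in WT hyperoxia, without overlap, and 1498, 861 and 608 in KO air, which overlapped. It was called in none of the 15 comparisons.

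The tropomyosins and the smooth and non-muscle forms were called mostly between ages, where calls were also frequent over all genes tested. Except from E19 to P5 in KO, a smaller share of the members than of all genes was called between ages. Between E19 and P5 in WT air 2 of 35 members were called, both higher, where 14.6% of all genes tested were called. Tpm2, a tropomyosin of slow and smooth muscle, read 6214, 2959, 2682 and 2591 at E19 and 6057, 5841 and 4985 at P5, a change of 0.73 (SE 0.21; adjusted p = 0.0168, limma). The 3 embryos other than WT replicate 1 lay below all P5 arrays. Actn1, the non-muscle actinin, read 3785, 3565, 3145 and 2467 at E19 and 4509.6, 4812 and 4199 at P5 without overlap, a change of 0.49 (SE 0.15; adjusted p = 0.0295, limma). Neither was called without WT E19 replicate 3 or 4, or without WT P5 air replicate 1 or 2, or with arrays centred on their medians. With the compared groups fitted alone neither was called.

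In KO air 2 of 35 members were called between E19 and P5, both higher, where 3.43% of all genes tested were called. Myh11, the smooth muscle heavy chain, read 244, 522, 454 and 967 at E19 and 1009, 1958 and 2703 at P5 without overlap, a change of 1.78 (SE 0.43; adjusted p = 0.0261, limma). Tpm1, a tropomyosin of striated and smooth muscle, read 2459, 4161, 2892 and 3818 at E19 and 3888, 5556 and 5193 at P5, a change of 0.56 (SE 0.15; adjusted p = 0.0348, limma). Neither was called without KO P5 air replicate 2 or 3, or with the compared groups fitted alone. Tpm1 was also not called without KO E19 replicate 1 or 3, or with arrays centred on their medians. Of 11 other smooth muscle genes tested 2 were called higher in KO and 1 in WT over the same interval, and 0 lower. Myl9, the smooth muscle regulatory light chain, was called in no comparison and read 1287 to 8619.9 over the 32 arrays, lowest on KO E19 replicate 1, which was also the lowest for Myh11.

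From P5 to P56 in air 3 of 35 members were called in WT, all lower, where 22.9% of all genes tested were called, and 7 in KO, where 29.6% were. These comparisons share the P5 air arrays with those from E19. Tpm4, the non-muscle tropomyosin, read 12498, 11202 and 11147 at P5 and 8036, 8402 and 8112 at P56 in WT, a change of -0.50 (SE 0.10; adjusted p = 0.000693, limma). In KO it read 9777, 11607 and 12218 at P5 and 8561, 9004 and 9384 at P56, a change of -0.31 (SE 0.10; adjusted p = 0.0229, limma). Every P56 array of Tpm4 lay below every P5 array of the same genotype. Tnni1, described above, was the other member called in both genotypes. Myh8 was the third in WT, at -2.82 (SE 0.84; adjusted p = 0.0146, limma), or -1.37 or more negative with the median of all values in place of the P56 arrays. Myh8 was not called without WT P5 air replicate 1 or WT P56 air replicate 3, or with the compared groups fitted alone. Tnni1 was not called in WT with an offset equal to the median of all values.

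The other 5 calls in KO were Tpm1, Actn1, Myh10, Tpm3 and Myl12b. Tpm1 read 2743, 2985 and 3174 at P56, below all P5 arrays, a change of -0.70 (SE 0.16; adjusted p = 0.0013, limma). Actn1 changed by -0.55 and Myh10 by -0.54, and both were lower at P56 without overlap (adjusted p = 0.0116 and 0.0318, limma). Without KO P5 air replicate 2 or KO P56 air replicate 2, Actn1, Myh10 and Tpm4 were not called, and without KO P5 air replicate 3 or KO P56 air replicate 1, Myh10 and Tpm4 were not. Tpm4 was also not called with the compared groups fitted alone. Tpm3 read 6891, 6812 and 9008 at P5 and 11489, 11465 and 10947 at P56, a change of 0.59 (SE 0.15; adjusted p = 0.0036, limma). Myl12b, a regulatory light chain of non-muscle myosin, read 11185, 12639.5 and 13767 at P5 and 16432, 18945 and 17752 at P56, a change of 0.50 (SE 0.12; adjusted p = 0.0023, limma). Neither Tpm3 nor Myl12b was called after quantile normalization, and Myl12b was not with arrays centred on their medians. Of 11 other smooth muscle genes tested 3 were called lower and 1 higher at P56 in WT, and 2 lower and 2 higher in KO.

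**Figure D5:**
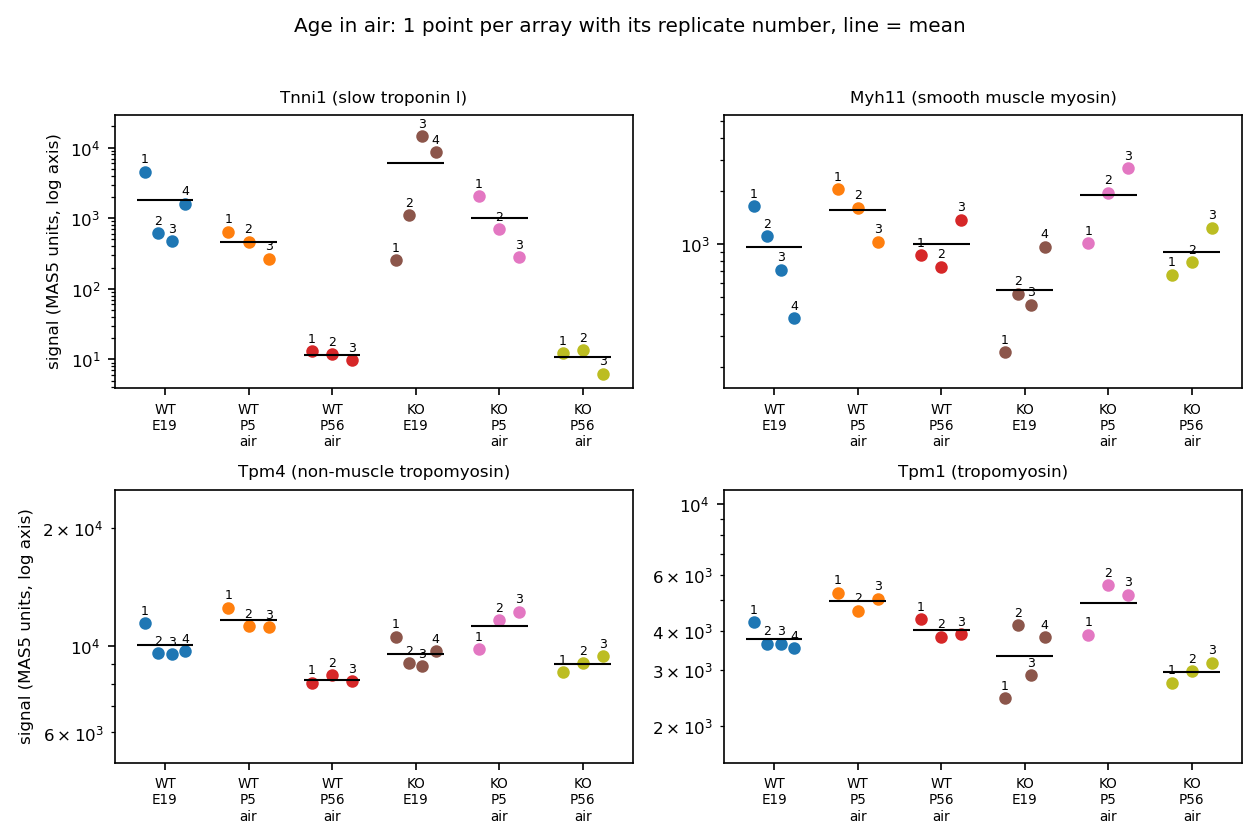
Signal (log axis) of Tnni1, Myh11, Tpm4 and Tpm1 in embryos and in air-kept mice of either genotype, 1 point per array with its replicate number and a line at the arithmetic mean. Tnni1 is at most 13.5 on each P56 array shown and at least 256 on each earlier one, and Tpm4 is lower at P56 than at P5 in both genotypes.

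At P5 the smooth muscle forms also stood higher in KO than in WT hyperoxia, without a call. Myh11 read 4304, 2859 and 1832 in KO hyperoxia and 1695, 1327 and 1264 in WT hyperoxia, and Myl9 read 8004, 6295 and 5500.2 against 3617, 4786 and 4677. Tpm1 and Tpm2 were likewise higher without overlap, with Tpm1 at 6092, 6086 and 5669 against 4678, 5049 and 5066. Myh11 overlapped between KO hyperoxia and KO air, where it read 1009, 1958 and 2703.

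Most of the remaining non-muscle forms lay above the median of all values on every array. Myl12a, the close relative that lies next to Myl12b, read 11260.2 to 21080.3, Myh9 5665 to 16865, Myh10 5008 to 12626, Myh14, a further non-muscle heavy chain, 748 to 5525, and Actn4, the second non-muscle actinin, 2260.1 to 7097. The highest array of Myh9, Myh10 and Myl12a and the lowest of Myh14 and Actn4 was KO E19 replicate 1, the array with the steepest 3' to 5' ratio. Myl6b, the essential light chain of slow and non-muscle cells, read 7.62 to 127, Myl10, a light chain of lymphocyte precursors, 1.19 to 13.5, and Myh7b, a heavy chain of slow and heart muscle, 7.56 to 235, with its highest array KO E19 replicate 3. Tnni3k read 0.892 to 305 with the same highest array, so 2 of the 5 genes that did not pass the filter peaked with the heart forms.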

How the data were processed

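Lung RNA of 32 mice was measured on 32 arrays in 10 groups. The authors deposited MAS5 signals, which are linear probe set intensities scaled to a common trimmed mean. MAS5 is named in the submitters' processing notes, and its settings are not given in the sources used here. Of 45101 probe sets, 34945 have 1 symbol on the platform annotation, 932 have several, 9160 have none and 64 are controls. Only those with 1 symbol named genes.

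From the deposited intensities log2(signal + 26.3) was computed, the offset being the lower quartile of all values. Probe sets brighter than 100.4, the overall median, on 3 or more arrays were kept. These were 27089, and 23428 of them have 1 symbol. A gene was represented by the kept probe set with the highest mean, giving 13345 genes. One model with a mean for each of 10 groups was fitted with limma 3.58.1 in R 4.3.3 (lmFit, eBayes with trend, 22 residual degrees of freedom). It gave 15 contrasts, each with Benjamini-Hochberg adjustment and a threshold of 0.05. Arrays carry no read depth, so their number limits the precision. The p-values rest on 1 spread per gene between mice within groups, pooled over the 10 groups and moderated by limma. Changes were planted in simulated data with the same mean in all groups and 1 normal spread per gene. In KO against WT at E19 the fit called 95.5% of genes changed by 2 log2 units, 74.6% by 1 and 16.4% by 0.5. For hyperoxia against air in KO at P5 the shares were 92.4%, 67.2% and 7.46%, and at P56 93.9%, 65.7% and 7.46%. The real arrays differ in spread, with array weights from 0.0469 to 10.4, so these shares need not hold for the members.

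The labels number the replicates but do not say that a number marks a shared litter or day. Of 40 same-numbered pairs, 10 had deviations from the group means that correlated above 0.1, and in 1 of 13 comparisons all pairs did, so the samples were not treated as paired.

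The members, their classes and the marker lists were chosen with earlier results of these data known. The text names each member called in a comparison it describes and the widest-ranging members of each class. Of each marker list it names at most 4 members, taken from those with the largest range, apart from Sln and Tcap, which were named after their values were seen. Myh13, Myh15 and Myl5 had no probe set with 1 symbol and were not analysed here. Alternatives were the filter, the offset, quantile normalization or centring on array medians, all kept probe sets, the compared groups alone, no trend, array weights, the replicate block, and leaving out each array. One more, without the 2 arrays of steepest 3' to 5' ratio, was chosen after seeing the data.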

Additional observations from a re-analysis of the deposited data

Results flagged for a closer look

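Of 70 tests of a gene within an E19 group of 4 arrays, 12 set 1 array apart by a gap that is large against the group's range. The cutoff has a nominal rate of 5% per test. The members were read on the same arrays and vary together, so this rate gives no expected count. No share over all genes tested was computed. WT replicate 1 stood high for Tnnc2 (261), Tnni2 (289), Actn3 (63.4), Tpm1 (4263), Tpm2 (6214) and Tpm4 (11399.6). KO replicate 4 stood high for the atrial light chains Myl4 (14332) and Myl7 (21651). KO replicate 1 stood high for Myl12a (21080.3) and low for Myh14 (748) and Actn4 (2260.1), and its log2 ratio of 3' to 5' control signal was 4.37. KO replicate 3 stood low for Actn1 (3241). Their causes were not tested.

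The change with oxygen at P5 differed between KO and WT for 3 fast or perinatal genes by the genotype-by-oxygen term. Its size on the log2 scale was 3.57 for Actn3, 6.0 for Myh8 and 5.12 for Tnnt3, each more positive in KO. Actn3 passed the filter only through the KO P5 hyperoxia arrays.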

How the results depend on the processing

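The count of called members was recomputed for each of 15 comparisons under 12 other settings. Of the 180 counts, 143 lay within 1.5 times the value reported and 37 did not. None of the 32 called changes turned its direction. Without a filter KO against WT at E19 gave 3 (10.6%). Here and below, brackets give the share of all genes tested that was called in that setting. With an offset of 1 KO against WT in P5 hyperoxia gave 0 (0.0899%) and the P5 genotype-by-oxygen term gave 1 (0.0749%). After quantile normalization P5 against E19 in WT gave 4 (16.9%) and P56 against P5 in WT gave 5 (25.4%). Centring on array medians gave 10 at E19 (22.7%), 0 for P5 against E19 in WT (11.2%) and 1 in KO (1.96%). With the compared groups alone the counts were 0 at E19 (0.3%), 1 for KO against WT in P5 hyperoxia (0.322%) and 0 for the P5 genotype-by-oxygen term (0%). They were 2 for KO against WT in P56 air (9.0%) and 9 for hyperoxia against air in KO at P56 (0.33%). The same setting gave 1 for P5 against E19 in WT (12.9%) and 0 in KO (0%), and 11 for P56 against P5 in WT (42.1%) and 12 in KO (38.4%). With array weights the share of all genes called was 9.64% at E19, 10.7% for KO against WT in P5 air, 13.2% in P5 hyperoxia and 24.2% for oxygen in WT at P5. The members called were then 11 at E19, 9 and 15 for KO against WT at P5, in air and hyperoxia, and 4 in either gas at P56 (20.2% in air and 35.3% after hyperoxia). Hyperoxia against air then gave 4 in WT and 15 in KO at P5 (20.1% in KO), and 5 in KO at P56 (3.44%). The genotype-by-oxygen term gave 10 members at P5 (5.25%) and 1 at P56 (2.47%). For P5 against E19 array weights gave 12 in WT (35.5%) and 12 in KO (21.9%), and for P56 against P5 17 (57.1%) and 13 (56.7%). The replicate block gave 1 for P5 against E19 in WT (11.2%) and 1 in KO (2.35%). It moved no other count by over 1.5 times, while the replicate numbers are only numbers by the check above. The setting without the 2 arrays of steepest 3' to 5' ratio was chosen after seeing the data. Its counts were 9 at E19 (16.6%), 4 for P5 against E19 in WT (25.7%), 4 in KO (8.67%), and 5 for P56 against P5 in WT (34.5%). The causes were not tested. Leaving out each array in turn gave 3 to 9 at E19, 0 to 5 for KO against WT in P5 hyperoxia, 5 to 7 for hyperoxia against air in KO at P5, 1 to 6 for the P5 genotype-by-oxygen term, 0 to 6 for P5 against E19 in WT, 0 to 3 in KO, 2 to 6 for P56 against P5 in WT and 4 to 8 in KO, and 0 throughout for the other 7. Signals below the median of all values have no dependable fold.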
